A study of Homo sapiens with 10 samples.

Results

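The genes described here are the collagens, the protein-coding genes whose symbols have the form COL, a number, A and a number. Of the 20327 genes in each deposited table, 43 met that rule, among 44 such symbols in the table of gene names used; COL26A1 is not analysed here. They were placed in 4 classes by the known structure of their proteins: 11 fibrillar, 6 basement membrane, 10 FACIT (fibril-associated collagens with interrupted triple helices) and 16 other collagens.

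RNA from hTERT RPE-1 cells, a telomerase-immortalised human line derived from retinal pigment epithelium and labelled wild type, was sequenced as polyadenylated RNA from 150 ng of total RNA per library. All cells, controls included, had been kept for 48 h in medium with 0.1% serum. In the 30 min experiment, 3 libraries of cells given DMSO, the vehicle, for 30 min were set against 3 libraries of cells given 200 µM merbarone, which inhibits the catalytic cycle of topoisomerase II, for 30 min. In the 2 h experiment, 2 libraries of untreated cells were set against 2 libraries of cells given 200 µM merbarone for 2 h. The untreated cells received no vehicle according to the labels, so at 2 h merbarone and its vehicle cannot be told apart. Nothing in the labels says that replicates were separate cultures, and p-values measure only the spread between these libraries.

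Collagens are secreted proteins built of alpha chains wound into a triple helix, and each chain is the product of its own gene. Fibrillar collagens form the load-bearing cables of connective tissue, FACIT collagens coat those cables, and type IV collagens form the sheet of the basement membrane. Other collagens make hexagonal networks, beaded filaments, anchoring fibrils or membrane-spanning proteins. In the eye, the retinal pigment epithelium rests on Bruch's membrane, a layered matrix that contains collagens of several of these classes.

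The type IV genes lie in head-to-head pairs whose transcription starts are close together, so the members of a pair share a start region. In RefSeq (GRCh38.p14), 126 bases lie between the starts of COL4A1 and COL4A2, 418 between those of COL4A4 and COL4A3, and 379 between those of COL4A5 and the nearer of 2 starts of COL4A6. The stretches before the starts of 4 genes whose RNA changed at 2 h or that pair with such a gene are shown 5′ to 3′. The COL4A1-COL4A2 stretch is the whole interval between the starts (chr13:110307158-110307283, plus strand). The others are the 250 bases before COL4A4 (chr2:227164206-227164455, minus strand), on the side of COL4A3, and before COL12A1 (chr6:75206054-75206303, minus strand). Capitals mark matches to the GC box (GGGCGG, or CCGCCC on the other strand) and to the CCAAT box (CCAAT, or ATTGG), common promoter motifs.
COL4A1-COL4A2: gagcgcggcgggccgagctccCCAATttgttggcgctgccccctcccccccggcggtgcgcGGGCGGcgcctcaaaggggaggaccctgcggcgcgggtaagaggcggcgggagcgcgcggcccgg
COL4A4: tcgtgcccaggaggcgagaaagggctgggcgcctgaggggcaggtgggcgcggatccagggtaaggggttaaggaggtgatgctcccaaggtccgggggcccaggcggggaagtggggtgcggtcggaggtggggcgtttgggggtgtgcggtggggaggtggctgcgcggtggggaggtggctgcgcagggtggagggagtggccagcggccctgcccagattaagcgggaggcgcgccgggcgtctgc
COL12A1: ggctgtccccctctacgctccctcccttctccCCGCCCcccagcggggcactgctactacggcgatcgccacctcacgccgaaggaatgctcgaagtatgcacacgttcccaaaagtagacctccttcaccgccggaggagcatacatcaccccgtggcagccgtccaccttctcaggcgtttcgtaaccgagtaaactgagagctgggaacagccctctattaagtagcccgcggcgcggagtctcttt
The COL4A1-COL4A2 interval held 1 GC box and 1 CCAAT box, the COL12A1 stretch held 1 GC box, and the COL4A4 stretch held neither set of letters. Windows of 300 bases (250 before and 50 after the start) were matched for 31 of the 43 collagens. A GC box on either strand was in 18 of them (58.1%, against 44.6% of 27305 windows of all genes) and a CCAAT box in 10 (32.3% against 35.7%). The letters TATAAA were in 5 (16.1% against 11.95%), while the AP-1 site TGACTCA and the cyclic AMP response element TGACGTCA were in 0, against 4.92% and 1.98% of all windows. These matches describe the letters only, and no binding was measured.

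The libraries held 26633780 to 38225538 reads in the 30 min experiment and 11956652 to 13691014 in the 2 h experiment, as recovered from the deposited RPKM values (reads per kilobase of gene, scaled to the depth of the library). For 40 of the 43 collagens the length in that RPKM was within 5% of the whole gene span, introns included, so levels of different collagens are compared below as recovered reads scaled to library depth (RPM) per kilobase of summed exon, called the exon level. Reads inside introns would be counted in it, and their share was not tested. Of 17 markers of retinal pigment epithelium, 5 had a mean of at least 1 RPKM (BEST1, PMEL, OTX2, KRT8 and KRT18), while RPE65, RLBP1, LRAT, TYR, DCT, TTR and CDH1 were at or near 0 (DCT at 0 in all 10 libraries, RPE65 at 0.021 RPKM in untreated replicate 1). Of 9 mesenchymal markers, 7 had a mean of at least 1 RPKM, VIM the highest, while PDGFRA and S100A4 did not. Among 5 endothelial and immune markers only CD68 reached 1 RPKM. The 2 libraries numbered 1 of the 30 min experiment stood apart from the other 4 there, and 30 min differences of COL4A1, COL4A2 and COL8A1 are given with and without them.

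In the control cells most collagen RNA came from a few genes. COL8A1, a chain of the short network-forming type VIII collagen found in Descemet's membrane and vessel walls, stood at an exon level of 107 ± 31.4 (SD, n = 3) under DMSO and 117 ± 3.01 (SD, n = 2) in untreated cells. That was 43.7% and 47.5% of the summed exon level of all collagens. It did not overlap with the next gene in either control. Below it under DMSO came COL12A1, a FACIT collagen (31.3 ± 7.27), COL4A2 (25.7 ± 6.57), COL5A2, a fibrillar chain that takes part in starting fibrils (21.5 ± 5.33), and COL4A1 (17.2 ± 9.19), and each neighbour in that order overlapped with the next. In untreated cells the order was COL4A2 (25.0 ± 2.47), COL4A1 (18.1 ± 1.25), COL12A1 (17.8 ± 0.287) and COL5A2 (17.5 ± 0.230). There the libraries of COL4A1, COL12A1 and COL5A2 overlapped between neighbours. The 5 genes together made up 82.8% of the collagen level under DMSO and 79.3% in untreated cells. COL8A1 was also the collagen with the most reads, 12968 to 48661 per library.

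By class, the other collagens held the largest share of the summed exon level, 54.04% ± 2.27 (SD, n = 3) under DMSO and 58.5% ± 1.01 (SD, n = 2) in untreated cells, mostly as COL8A1. The basement membrane class held 20.3% ± 2.81 and 20.7% ± 0.657, the FACIT class 14.1% ± 3.87 and 7.94% ± 0.169, and the fibrillar class 11.5% ± 0.561 and 12.9% ± 0.523. Without DMSO replicate 1 the DMSO shares were 53.9% other, 18.7% basement membrane, 15.6% FACIT and 11.8% fibrillar. With the deposited RPKM, which divides by the gene span, the fibrillar share in untreated cells was 21.5% and the FACIT share under DMSO 22.8%. All 6 basement membrane genes had a mean of at least 10 reads in both controls. The same held in the DMSO libraries for 6 of 11 fibrillar, 7 of 10 FACIT and 9 of 16 other genes.

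**Figure D1:**
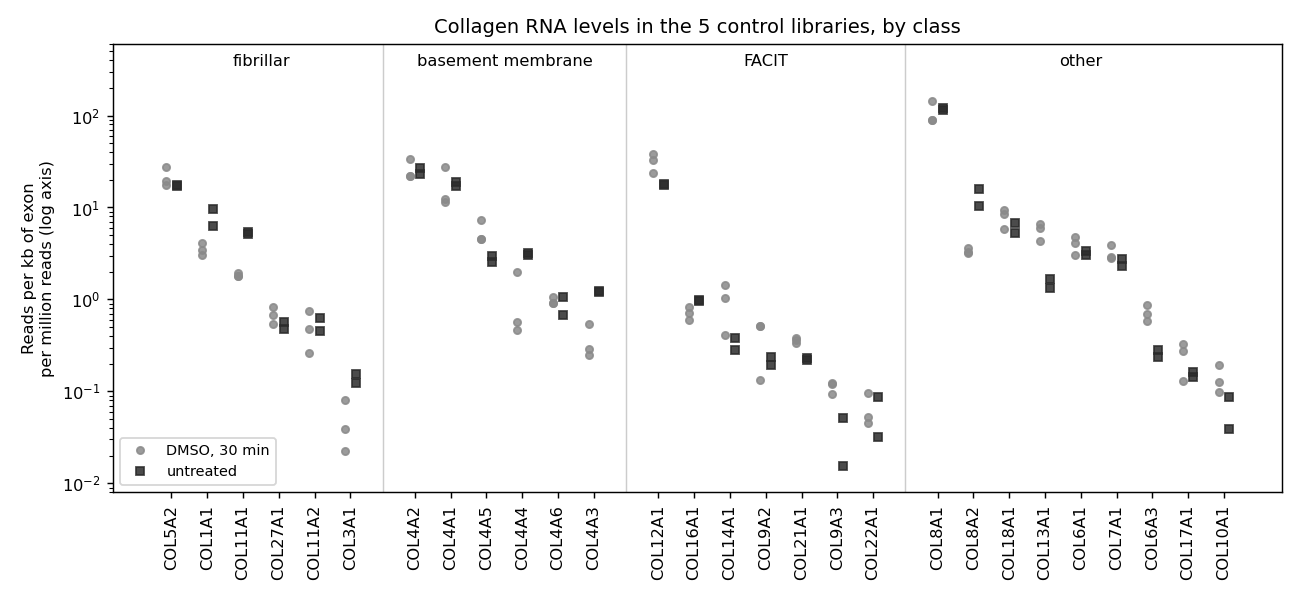
Exon level (RPM per kilobase of summed exon, log axis) of the 28 collagens with a mean of at least 10 reads in either control, ordered within each class; circles are the 3 DMSO libraries and squares the 2 untreated libraries. COL8A1 lies above every other collagen in each control, and the libraries of COL12A1, COL4A2, COL5A2 and COL4A1 form the next group.

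The controls of the 2 experiments are given side by side as a description; vehicle and experiment cannot be told apart in this, and no test was run. The share of collagens whose controls did not overlap was close to that of all genes. Of 28 collagens with a mean of at least 10 reads, both untreated libraries lay above all 3 DMSO libraries for 7 (COL11A1, COL16A1, COL1A1, COL3A1, COL4A3, COL4A4 and COL8A2), where 32.9% of all genes did. They lay below for 9 (COL10A1, COL12A1, COL13A1, COL14A1, COL21A1, COL4A5, COL6A3, COL7A1 and COL9A3), where 24.1% did. COL8A2 was at 48.5 and 73.7 RPM in untreated cells and 15.2, 16.8 and 14.99 under DMSO. COL4A4 was at 36.0 and 37.8 against 23.7, 6.65 and 5.47. COL13A1, a transmembrane collagen, was at 19.4 and 15.4 against 76.4, 68.2 and 49.2. COL12A1 was at 331.2 and 338.8 RPM in untreated cells and 615.7, 442.2 and 712.7 under DMSO.

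The remaining 15 collagens had a mean under 10 reads in both controls. COL9A1, a cartilage FACIT chain, had 0 of 253712545 reads over all 10 libraries, where 3 reads is the limit that a count of 0 allows. COL2A1, the main fibrillar chain of cartilage, had 0 to 2 reads per library. Several genes with few reads encode partners of chains with many more. COL1A2, the usual partner of COL1A1 in type I collagen, had 0 to 4 reads per library against 754 to 1417 for COL1A1. COL5A1, which joins COL5A2 in type V collagen, had 0 to 5 reads against 1546 to 7231 for COL5A2. COL6A2, the partner of COL6A1 and COL6A3 in the beaded filaments of type VI collagen, had 0 to 11 reads against 222 to 929 for COL6A1. Collagen exons are short: the median exon block of the members was 69 bp, and 54 bp in 15 of them, against 181 bp over all genes. Whether reads across exon junctions were aligned is not given in the sources used here, and its part in these low counts was not tested. COL4A1 and COL4A2 overlap each other in the GRCh37 annotation used, and COL10A1, COL18A1, COL19A1 and COL9A3 each overlap another gene. The use of strand in counting is not given either, so the values of these 6 are less certain.

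After 30 min of merbarone no collagen changed past the threshold. The 7 collagens with a mean of at least 1 RPKM in that experiment were COL8A1, COL12A1, COL4A1, COL4A2, COL5A2, COL1A1 and COL7A1, the chain of the anchoring fibrils that tie epithelia to the matrix. Of them, 0 were called by limma on log2(RPKM + 1) at an adjusted p of 0.05, against 0.0154% of the 6500 genes tested (1 gene), and 0 had an unadjusted p under 0.05. Limma's voom on recovered reads, which needs a mean of 10 reads, tested 28 collagens and called 0, against 0.00714% of 14012 genes, also with 0 at an unadjusted p under 0.05. The median log2 fold change of the 7 was 0.04, against -0.01 over all genes tested. Of the 28 collagens with a mean of 10 reads, 0 had all merbarone libraries above or all below the DMSO libraries, where 1.28% and 1.12% of all genes did.

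COL8A1 was at 8.39, 5.18 and 5.24 RPKM under DMSO and 8.99, 5.13 and 5.49 RPKM under merbarone. The groups overlapped, and replicate 1 was the high library in each. The log2 fold change was 0.04 ± 0.24 (SE), with the spread between replicate numbers left in. COL12A1 was at 5.06, 3.63 and 5.85 RPKM against 5.10, 3.90 and 6.29 RPKM, and here replicate 2 was the low library in each group. Its log2 fold change was 0.06 ± 0.19 (SE), with a 95% interval from -0.40 to 0.52. For the basement membrane pair, the 30 min libraries differed more between replicate numbers than between treatments. COL4A1 was at 2.57, 1.05 and 1.15 RPKM under DMSO and 3.11, 1.06 and 1.18 RPKM under merbarone. COL4A2 was at 3.09, 2.05 and 2.02 RPKM against 3.34, 1.84 and 2.05 RPKM. The groups overlapped for both genes. The 95% interval of the log2 fold change ran from -0.71 to 0.87 for COL4A1 and from -0.47 to 0.46 for COL4A2. With the replicate number as a block, which takes out the spread between the numbers, it ran from -0.03 to 0.19 for COL4A1 and from -0.11 to 0.11 for COL4A2. For the fibrillar COL1A1 and COL5A2 and for COL7A1, the groups also overlapped. COL1A1 was at 1.69, 2.04 and 1.48 RPKM against 1.98, 1.92 and 1.71 RPKM, with a log2 fold change of 0.07 ± 0.08 (SE). COL5A2 was at 1.36, 0.872 and 0.950 RPKM against 1.45, 0.909 and 0.992 RPKM, with 0.04 ± 0.12 (SE). COL7A1 was at 1.01, 1.38 and 1.02 RPKM against 1.05, 1.24 and 1.18 RPKM, with 0.02 ± 0.08 (SE). In COL5A2, as in COL8A1, replicate 1 was the high library of each group. With the replicate number as a block, the 95% interval ran from -0.05 to 0.14 for COL8A1 and from -0.03 to 0.15 for COL12A1. It ran from -0.02 to 0.10 for COL5A2, from -0.05 to 0.19 for COL1A1 and from -0.08 to 0.12 for COL7A1. Between libraries of the same number, the merbarone library was higher in RPM in 3 of 3 pairs for COL12A1, COL4A1 and COL5A2. It was higher in 2 of 3 for COL8A1, COL4A2, COL1A1 and COL7A1. The share of all genes with such pairs was not counted, so these pairs are a description only.

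The type IV genes spread mostly by replicate number. In RPM, COL4A4 was at 23.7 in DMSO replicate 1 and 26.0 in merbarone replicate 1, and at 5.47 to 7.26 in the other 4 libraries. The ratio of the libraries numbered 1 to the others was 3.96 for COL4A4, 2.56 for COL4A1, 2.16 for COL4A3, 1.62 for COL4A2, 1.51 for COL4A5 and 1.16 for COL4A6. Outside type IV it was 1.65 for COL8A1, 1.51 for COL5A2, 1.43 for COL6A3 and 1.26 for COL13A1. Both libraries numbered 1 lay above the other 4 for 10 of 28 collagens, all 6 type IV genes among them, with COL13A1, COL5A2, COL6A3 and COL8A1, where 19.5% of all genes did. They lay below for 9 (32.8% of all genes), COL14A1, a FACIT chain (ratio 0.331), and COL9A2 (0.376) the farthest. Without both of those libraries, 0 collagens were called at 30 min, and the log2 difference was 0.01 for COL4A1 (95% interval from -0.13 to 0.15), -0.04 for COL4A2 and 0.02 for COL8A1. Collagen reads made up 0.290% ± 0.0639 (SD, n = 3) of a library under DMSO and 0.303% ± 0.0782 under merbarone.

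**Figure D2:**
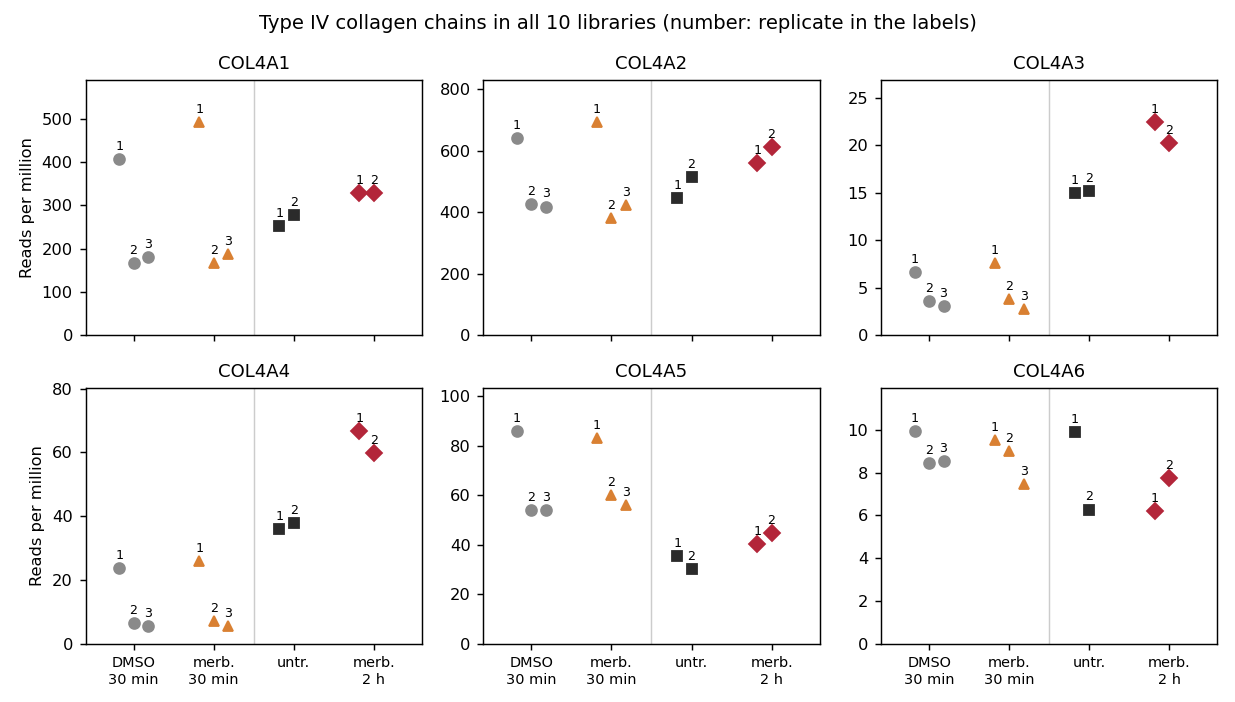
RPM of the 6 type IV collagen genes in each of the 10 libraries, with the replicate number of the labels above each point; a vertical line separates the experiments. At 30 min the libraries numbered 1 lie above the others in both groups, while at 2 h the merbarone libraries lie above the untreated ones for every gene shown except COL4A6.

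After 2 h of merbarone, the collagen RNAs called with all 4 libraries were higher than in untreated cells, and COL12A1 rose most. Of the 6 collagens with a mean of at least 1 RPKM, limma called 1 higher, COL12A1, and 0 lower. Among all 6620 genes tested, 5.98% were called higher and 7.1% lower. On recovered reads, limma's voom tested 24 collagens and called 6 higher and 0 lower, where 7.94% of 13440 genes were called higher and 6.09% lower. These were COL12A1, COL4A4, COL1A1, COL4A3, COL11A1 and COL4A1. The median log2 fold change of the 24 was 0.17, against 0.00 over all genes tested, and 16 were above 0. The merbarone libraries all lay above the untreated ones for 14 of the 24 (28.8% of all genes) and all below for 1, COL27A1 (29.4%). Collagen reads made up 0.268% and 0.280% of the untreated libraries and 0.340% and 0.334% of the merbarone libraries, without overlap. In the DMSO libraries of the other experiment they made up 0.362%, 0.241% and 0.266%, which spans these values.

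COL12A1 (ENSG00000111799, GRCh37 chr6:75794042-75915983, minus strand) encodes type XII collagen, a FACIT protein that decorates the surface of fibrils and whose start region is printed above. It was at 2.72 and 2.78 RPKM in untreated cells and 5.37 and 4.50 RPKM under merbarone, from 4412 and 4051 reads against 8955 and 7152. The groups did not overlap, and the merbarone libraries differed more from each other than the untreated ones did. Its log2 fold change was 0.66 ± 0.09 (SE; limma, adjusted p = 0.0031), and in RPM the merbarone mean was 1.80 times the untreated mean. With no filter on RPKM the limma adjusted p was 0.101, and with all 4 groups in the fit 0.0752, with the same fold change. Over all alternatives the adjusted p ran from 6.62e-19 (voom with the replicate number as a block) to 0.101. Under merbarone COL12A1 was at 654.1 and 548.5 RPM, within the 442.2 to 712.7 of the DMSO libraries of the other experiment. COL4A1 also lay within its DMSO values, while COL4A4, COL1A1, COL4A3 and COL11A1 lay above theirs, as they did in untreated cells. Vehicle and experiment cannot be told apart in this.

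The type IV genes, which build the basement membrane sheet, differed among themselves. COL4A4, which joins COL4A3 and COL4A5 in the mature basement membranes of kidney, lung, cochlea and eye, was at 36.0 and 37.8 RPM in untreated cells and 66.8 and 59.7 under merbarone. Its groups did not overlap, and its voom log2 fold change was 0.78 ± 0.12 (SE; limma, adjusted p = 0.000251). Over its alternatives the adjusted p ran from 6.51e-11 (voom with the replicate number as a block) to 0.101, the highest on log2(RPKM + 1) with no filter, where COL4A4 was not called. COL4A3, its head-to-head neighbour, was at 14.9 and 15.2 against 22.4 and 20.2 RPM, with 0.50 ± 0.15 (SE; limma, adjusted p = 0.0327, from 0.0032 to 0.412). COL4A1 and COL4A2 form the heterotrimer present in nearly all basement membranes and start from the interval printed above. COL4A1 was at 1.596 and 1.76 RPKM against 2.08 and 2.08 RPKM, and COL4A2 at 2.16 and 2.48 against 2.71 and 2.96 RPKM. The groups did not overlap for either gene. On log2(RPKM + 1) neither passed (0.20 ± 0.07 SE, limma adjusted p = 0.0982, and 0.21 ± 0.08 SE, adjusted p = 0.133). On recovered reads COL4A1 passed with 0.31 ± 0.10 (SE; limma, adjusted p = 0.0405, from 0.000794 to 0.735 over its alternatives) and COL4A2 did not with 0.29 ± 0.10 (SE; adjusted p = 0.0601). COL4A5 was at 35.5 and 30.3 against 40.2 and 44.6 RPM, without overlap, and did not pass (0.37 ± 0.13 SE; limma, adjusted p = 0.0699). COL4A6 was at 9.91 and 6.27 against 6.21 and 7.75 RPM, and its log2 difference was -0.20 with a 95% interval from -0.68 to 0.28.

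Among the fibrillar genes, COL1A1, the main chain of type I collagen, was at 3.08 and 4.68 RPKM in untreated cells and 5.49 and 5.92 RPKM under merbarone. The groups did not overlap, but the untreated libraries were far apart. On log2(RPKM + 1) the difference was 0.48 ± 0.14 (SE; limma, adjusted p = 0.0573). On recovered reads COL1A1 passed with 0.59 ± 0.14 (SE, limma adjusted p = 0.00953). On log2(RPKM + 1) with no filter it did not (limma adjusted p = 0.264). Against untreated replicate 2 alone, that is without untreated replicate 1, the log2 difference on recovered reads was 0.28. COL11A1, a minor fibrillar chain that helps start cartilage fibrils, was at 49.7 and 46.4 RPM against 64.4 and 61.2, without overlap. Its voom log2 fold change was 0.39 ± 0.12 (SE; limma, adjusted p = 0.0355, from 0.00224 to 0.425). COL5A2 was at 0.857 and 0.873 RPKM against 0.861 and 0.814 RPKM. Its voom difference was -0.05, with a 95% interval from -0.27 to 0.17.

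**Figure D3:**
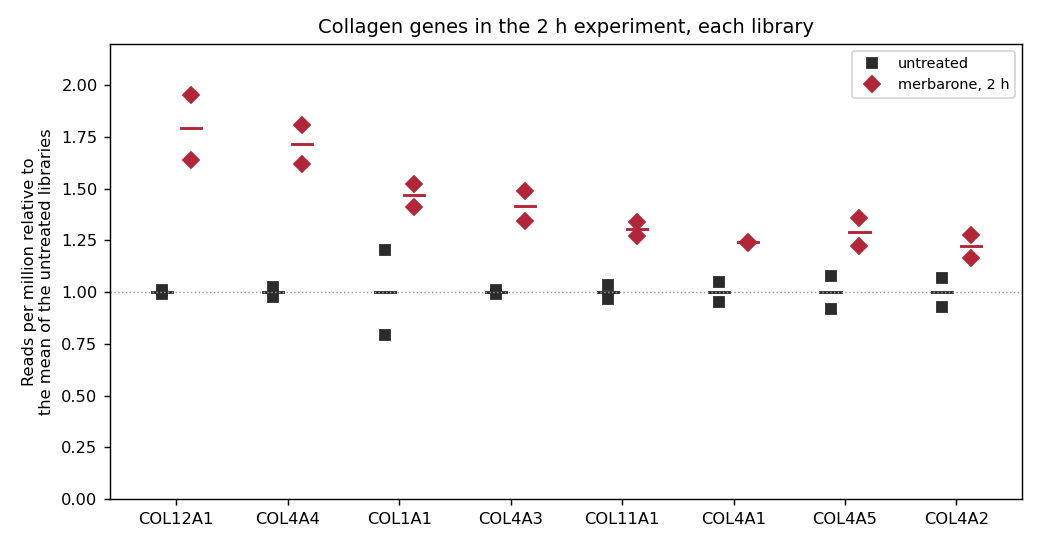
RPM in each library of the 2 h experiment, divided by the mean of the 2 untreated libraries, for the 6 collagens called by voom and for COL4A5 and COL4A2, the next by adjusted p; squares are untreated cells, diamonds 2 h of merbarone and short lines group means. All merbarone libraries lie above the untreated ones, with COL12A1 (1.80 times) and COL4A4 (1.72 times) the highest means.

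COL8A1, the most abundant collagen, was at 6.99 and 6.74 RPKM in untreated cells and 7.58 and 7.48 RPKM under merbarone. The merbarone libraries lay above the untreated ones, but the log2 difference of 0.12 ± 0.09 (SE; limma, adjusted p = 0.394) did not pass. COL8A2, the other type VIII chain, was at 1.62 and 2.46 RPKM against 1.84 and 1.99 RPKM, and the groups overlapped. Its log2 difference was -0.04 with a 95% interval from -0.31 to 0.23. Without untreated replicate 1 it was called lower (-0.24; limma, adjusted p = 0.0212), and without untreated replicate 2 the difference was 0.16 and was not called. COL7A1 was at 0.827 and 0.986 RPKM against 1.01 and 1.06 RPKM, and its voom difference of 0.20 ± 0.14 (SE; limma, adjusted p = 0.353) did not pass. The other collagens tested on recovered reads, the transmembrane chains COL13A1 and COL17A1, the endostatin precursor COL18A1, the type VI chains COL6A1 and COL6A3 and the FACIT chains COL9A2, COL14A1, COL16A1 and COL21A1 among them, did not pass. The interval plot gives them all. COL17A1, the hemidesmosome collagen, had the widest interval at 2 h, with 15 and 12 reads in untreated cells and 5 and 15 under merbarone.

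**Figure D4:**
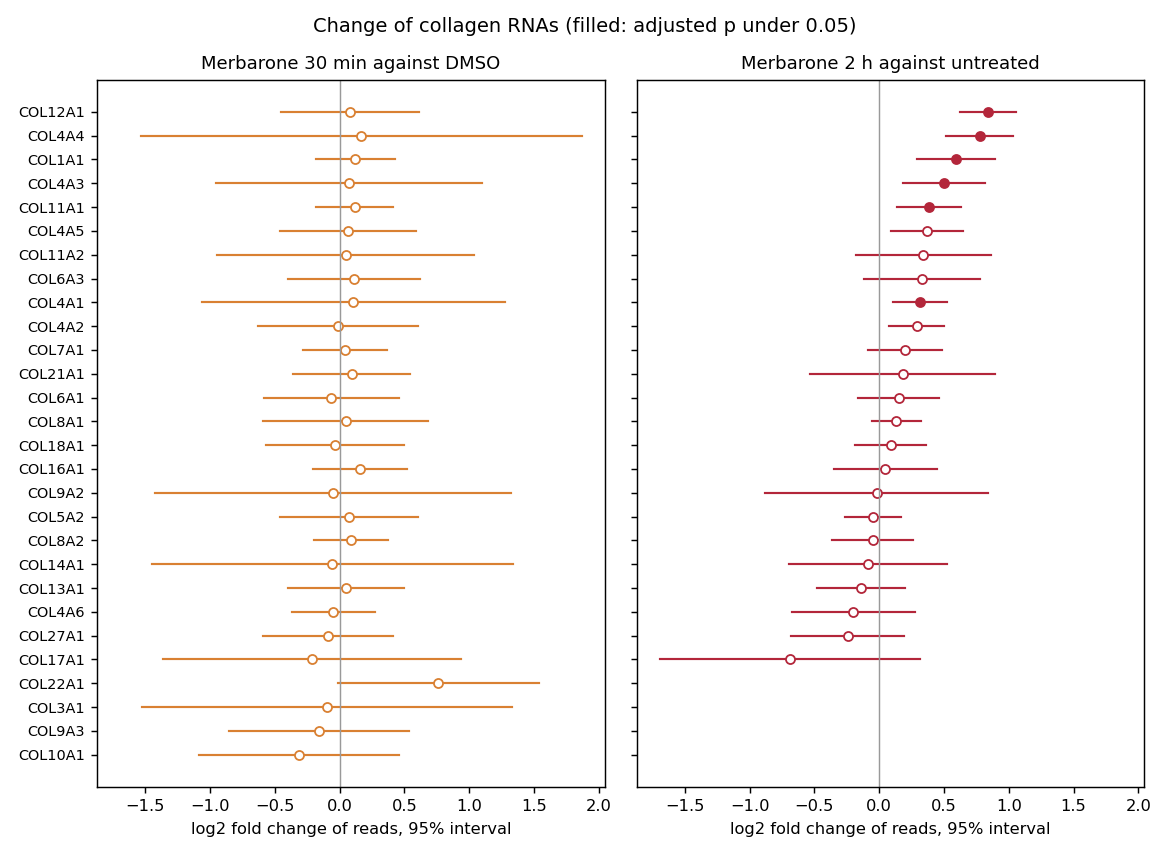
Log2 fold change of recovered reads (limma's voom) with its 95% interval for each collagen with a mean of at least 10 reads, at 30 min (left, 28 genes) and at 2 h (right, 24 genes); filled points have an adjusted p under 0.05. At 30 min 0 points are filled, and at 2 h 6 are, all to the right of 0.

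These counts depended on single libraries. A fit without 1 library leaves 1 in its group, which is assumed to vary like the other group, so these fits show how the calls move and not that a call is stable. On log2(RPKM + 1), the collagens called higher changed with the library left out, and COL8A2 was called lower without untreated replicate 1. On recovered reads COL8A2 was also called lower without that library, with a log2 difference of -0.36. COL4A3, COL11A1 and COL4A1 lost their calls on recovered reads without merbarone replicate 1, and also without merbarone replicate 2. COL1A1 lost its call there without merbarone replicate 2. After a correction of log2(RPKM + 1) for GC content, 4 of 6 collagens were called higher, COL12A1, COL1A1, COL4A1 and COL4A2, and 0 lower, where 11.4% and 18.4% of 6496 genes were called higher and lower. The calls over all genes moved with the libraries too, from 328 to 2464 on log2(RPKM + 1) and from 528 to 4123 on recovered reads as each library was left out.

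The effect at 2 h was set against that at 30 min in a fit over all 10 libraries, in which time, kind of control and experiment cannot be told apart. Of 7 collagens, limma called 0, against 1.63% of 6558 genes, while COL12A1 had an unadjusted p of 0.0482. On recovered reads voom called 0 of 28, against 0.475% of 13900 genes. COL12A1 had a difference of 0.60 ± 0.26 (SE; limma, adjusted p = 0.306). With the replicate number as a block, COL12A1 was called higher (limma, adjusted p = 0.0053, against 0.306 without the block, and from 9.80e-05 to 0.694 over its alternatives), where 19.1% of all genes were called. The same block on recovered reads called 5 of 28 collagens, COL12A1, COL4A4, COL4A2 and COL1A1 higher and COL22A1 lower, against 15.1% of all genes. COL22A1 had 9 and 3 reads in untreated cells and 6 and 0 under 2 h of merbarone, too few to enter the 2 h fit. In the 30 min experiment it had 20, 11 and 16 reads under DMSO and 23, 36 and 29 under merbarone. Of the settings run, collagens were called in this contrast only in those with the block.

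Genes that make, export, anchor and degrade collagen were taken from 6 lists. At 2 h their counts stand beside 5.98% of all genes called higher and 7.1% lower on log2(RPKM + 1), and 7.94% and 6.09% on recovered reads. At 30 min, limma called 0 genes in every list, on log2(RPKM + 1) and on recovered reads, with median log2 differences within the range of -0.01 to 0.04. At 2 h, 0 of 14 folding and modification genes were called on log2(RPKM + 1). P4HA1, a subunit of the prolyl hydroxylase that stabilises the helix, was called higher on recovered reads only (0.39 ± 0.11 SE; limma, adjusted p = 0.0235; 1.00 and 0.977 RPKM against 1.37 and 1.22 RPKM). In the DMSO libraries of the other experiment P4HA1 was at 0.787, 0.781 and 0.679 RPKM. The more abundant PPIB, P4HB and the collagen chaperone SERPINH1 were not called, with log2 differences of -0.22, -0.03 and -0.20. Of 5 secretion genes, MIA3 (TANGO1), which loads bulky procollagen at exit sites of the endoplasmic reticulum, was called higher. It was at 1.198 and 1.02 RPKM against 1.61 and 1.59 RPKM, with a log2 fold change of 0.30 ± 0.07 (SE; limma, adjusted p = 0.0257). In the DMSO libraries of the other experiment MIA3 was at 1.69, 1.63 and 1.86 RPKM.

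Of 6 processing and crosslinking genes, 0 were called on log2(RPKM + 1). On recovered reads, 1 of 10 was called higher, LOXL2 (0.30 ± 0.10 SE; limma, adjusted p = 0.046), and 1 lower, LOXL1 (-0.41 ± 0.11 SE; limma, adjusted p = 0.0156), both lysyl oxidase family members. LOX, the family's founding crosslinking enzyme, was at 28.6 and 26.1 RPKM against 31.2 and 28.2 RPKM and was not called. Of 6 degradation genes, CTSK (cathepsin K), a collagen-cleaving protease, was called lower, from 10.3 and 10.8 RPKM to 7.64 and 8.29 RPKM (-0.36 ± 0.10 SE; limma, adjusted p = 0.0393). The metalloproteinase genes MMP14 and MMP2 were not called, with log2 differences of -0.19 and 0.10. Of 4 receptor genes 0 were called on log2(RPKM + 1), and on recovered reads ITGA11, the alpha subunit of a collagen-binding integrin, was called higher (0.33 ± 0.11 SE; limma, adjusted p = 0.0465).

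In the list of other matrix partners, the longest of the 6, 4 of 11 genes tested were called higher and 0 lower, with a median log2 fold change of 0.28 against -0.05 over all genes tested. FN1, fibronectin, on which collagen is assembled outside the cell, was at 77.8 and 75.0 RPKM in untreated cells and 178.5 and 158.8 RPKM under merbarone. That was a log2 fold change of 1.13 ± 0.12 (SE; limma, adjusted p = 0.000412), larger than that of any collagen called. FBN1, the microfibril protein fibrillin-1, was called with 0.59 ± 0.08 (SE; limma, adjusted p = 0.00266), from 1.84 and 1.75 RPKM to 3.45 and 3.01 RPKM. The laminin chains LAMB1 (0.35 ± 0.09 SE; limma, adjusted p = 0.0364) and LAMA4 (0.28 ± 0.07 SE; limma, adjusted p = 0.0276), partners of type IV collagen in the basement membrane, were called as well. FN1 was at 224.8, 156.4 and 209.2 RPKM in the DMSO libraries of the other experiment, and FBN1 at 6.82, 2.96 and 4.15 RPKM. Both genes lay within these values under 2 h of merbarone. LAMB1 was at 8.21 to 8.86 RPKM under DMSO, against 8.64 and 8.21 RPKM under 2 h of merbarone. LAMA4 was at 2.44 to 2.75 RPKM under DMSO, above its 1.56 and 1.38 RPKM under 2 h of merbarone. Vehicle and experiment cannot be told apart in this. SPARC, LAMB2 and AGRN were not called, with log2 differences of -0.02, 0.21 and 0.05. On recovered reads 8 of 24 were called higher and 0 lower, HSPG2 (perlecan, 0.81 ± 0.13 SE; limma, adjusted p = 0.000227) among them. Among cell type markers, OTX2 (-0.32 ± 0.08 SE; limma, adjusted p = 0.0349) and S100A4 (-0.43 ± 0.12 SE; limma, adjusted p = 0.0423) were called lower at 2 h. On recovered reads the mesenchymal PDGFRB was called higher (0.35 ± 0.10 SE; limma, adjusted p = 0.0302) and THY1 lower (-0.41 ± 0.10 SE; limma, adjusted p = 0.00953). In bulk RNA, fewer cells of a type and less RNA per cell cannot be told apart. The summed mesenchymal markers were at 1144 to 1243 RPKM in untreated cells and 1082 to 1133 RPKM under 2 h of merbarone. VIM (737.5 and 727.1 RPKM in untreated cells) and TAGLN (308.1 and 399.8) made up most of that sum. The summed retinal pigment epithelium markers were at 90.6 to 97.9 and 96.0 to 105.5 RPKM. KRT18 (56.9 and 62.0 RPKM in untreated cells) was the largest part of them. The part of either sum in the collagen values was not tested.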

How the data were processed

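RNA-seq was done on 10 libraries of hTERT RPE-1 cells. The authors deposited RPKM values by Ensembl gene, a table for each library, per the file headers, neither logged nor pooled. The submitters' processing notes name Bowtie 1.2.0 and hg19/GRCh37, without roles; the counter, annotation and use of strand are not given in the sources used here. The RPKM values are whole multiples of what 1 read is worth, and whole reads were recovered for 100% of the 17680 genes with any value. The implied gene length lay within 1% of the GRCh37 gene span (GENCODE) for 74.9% of 17234 genes and within 1% of the summed exons for 1.59%, so long introns lower the RPKM of a gene (median span 139332 bp for collagens). Symbols, classes and promoter windows (RefSeq, GRCh38.p14) were matched by gene identifier or symbol.

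Tests used limma 3.58.1 in R 4.3.3 (lmFit, eBayes with trend) on log2(RPKM + 1), for genes that averaged 1 RPKM or more in the fitted libraries, two-sided, with Benjamini-Hochberg adjustment over all genes tested and a threshold of 0.05. Each experiment was fitted on its own libraries. Fold changes on this scale understate those of genes with low RPKM. Other settings were the replicate number as a block, quantile normalization, median scaling, an average of 5 RPKM as filter or none, a pseudocount of 0.1, no trend in eBayes, a loess correction for the GC content of annotated transcripts (span 0.5), limma's voom on recovered reads (mean of at least 10), all 4 groups in the fit, and leaving out each library. Leaving out both 30 min libraries numbered 1, and leaving out libraries under voom, were chosen after seeing the data. Tests were tried on simulated data. Intervals are at 95%.

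The replicate numbers come from the labels. In the 30 min experiment, deviations from the group means of same-numbered libraries correlated at 0.925, 0.646 and 0.605 for numbers 1, 2 and 3, so the numbers were taken to pair the libraries; the block changed no call on collagens there. In the 2 h experiment the correlation was 0.300 with 2 pairs only.

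The collagens, their classes and the lists (collagen folding and modification, secretion, processing and crosslinking, degradation, receptors, other matrix partners, and epithelial, mesenchymal, and endothelial and immune markers) were chosen with earlier results of these data known. Values are printed per library for collagens with a mean of at least 1 RPKM in either experiment or called on RPKM or recovered reads; of each list, up to 5 called genes in each direction and the 3 uncalled genes with the highest control level could be named. P3H3, CTAGE5 and PECAM1 are not analysed here. COL4A5, COL4A6 and COL27A1 were named after their values were seen. Recovery and plots used Python 3.11.15 with NumPy 2.4.6, pandas 2.3.3 and matplotlib 3.10.9.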

Additional observations from a re-analysis of the deposited data

How the results depend on the processing

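At 30 min, 0 collagens were called under every alternative run. As single 30 min libraries were left out, the log2 differences of 6 uncalled genes crossed 0, running from -0.10 to 0.21 for COL12A1, -0.24 to 0.33 for COL4A1, -0.19 to 0.14 for COL4A2, -0.073 to 0.14 for COL5A2, -0.026 to 0.097 for COL7A1, and -0.18 to 0.24 for COL8A1. COL4A2 also turned to 0.0088 with median scaling, 0.012 with quantile normalization and 0.0072 with GC correction, with or without the block (0.0072). At 2 h, the 1 call of 6 became 0 of 41 with no filter, 0 of 1 with a mean of at least 5 RPKM, 0 of 7 with all 4 groups in the fit, 4 with GC correction and 6 of 24 with voom. The calls also moved as single libraries were left out. COL8A2 was called lower without untreated replicate 1 (-0.24, and -0.36 with voom) and turned to 0.16 without untreated replicate 2, and with voom to 0.25 without that library and 0.0047 without merbarone replicate 1. COL4A4, COL4A3 and COL11A1, called with voom, were not called with no filter (limma adjusted p = 0.101, 0.12 and 0.136). With the replicate number as a block, the 2 h call count was 4 on RPKM, 4 after GC correction and 8 with voom, all higher. Over all genes, the block called 813 of 6620 higher and 1316 lower on RPKM. It called 817 of 6496 higher and 1491 lower after GC correction, and 1812 of 13440 higher and 1675 lower with voom. These 2 pairs share only a number, and that fit leaves 1 residual degree of freedom. On RPKM and with voom, that fit took the variance wholly from all genes. Its small p-values there do not measure the spread of any single gene. The variance was also taken wholly from all genes in the 2 h voom fits that left out a library. That held too for the 2 h RPKM fits that left out a merbarone library. The p-values of those fits do not measure the spread of a single gene either. For the difference between the experiments the block gave 1 call on RPKM, 3 after GC correction and 5 with voom, against 0 without it. Over all genes the block called 1255 of 6558, 1889 of 6435 and 2100 of 13900 in these settings. As a library was left out, these differences ran from -0.13 to 0.44 for COL4A1, -0.00099 to 0.16 for COL7A1 and -0.13 to 0.29 for COL8A1. The cause of these changes was not tested. Over all genes, the 866 calls at 2 h became 53 with no filter, 397 with a mean of at least 5 RPKM, 2129 with the block, 1939 with GC correction, 1886 with voom and 3487 with voom and the block. Of them, 396 were higher, and 422 of 784 were higher with quantile normalization. The class shares of collagens on the deposited RPKM, in place of the exon level, were 22.8% FACIT, 13.7% fibrillar and 44.7% other under DMSO, and 12.6% FACIT, 18.8% basement membrane, 21.5% fibrillar and 47.1% other in untreated cells. Depth limits the 15 collagens under 10 reads in both controls, whose changes were not detectable. At 2 h only 24 of 43 collagens had enough reads for voom, as COL3A1, COL9A3, COL10A1 and COL22A1 fell short too. The 2 libraries per group also limit the precision at 2 h.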

Other observations

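The 2 h log2 differences of the 24 collagens on recovered reads had a Spearman correlation across genes of -0.30 with the GC content of their annotated transcripts, and of -0.07 with the log of their span. Over 13212 genes the values were -0.16 and 0.21. Genes are not independent replicates, and these are descriptions only.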
